A study of Mus musculus with 9 samples.

Results

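The comparison described here is that of mice exposed to 1% heptanal, a dilute solution of an aldehyde odorant, with control mice exposed to water. It set against each other 6 of the 9 mice in the data set, 3 titled 1% heptanal and 3 titled control, joined into 3 pairs by the postnatal day in the labels (22, 21 and 18). All 23607 genes in the tables were considered, 1248 of them olfactory receptor (OR) genes. Of these, 14930 genes, 448 of them ORs, had enough counts to be tested.

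All mice were C57BL/6, rested alone in an odorless container, and were then kept for 1 hr with filter paper carrying either distilled water or the odor solution. The other 3 mice received 100% heptanal, 1 at each postnatal day, and shared the controls. They entered the fit of the test, which estimated the spread between mice left after group and postnatal day over all 9. The mice of 1 postnatal day were littermates of the same sex, per the methods, so each pair compared siblings and each group held 1 mouse per litter. The olfactory epithelium (OE) was dissected, ribosomes carrying phosphorylated S6 were immunoprecipitated (pS6-IP), and the mRNA on them was sequenced.

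An odorant that binds its receptor opens cation channels in the cilia of an olfactory sensory neuron (OSN) through a G protein and cyclic AMP. Firing then leads to phosphorylation of ribosomal protein S6 and to transcription of immediate early genes such as Fos and Egr1. Each mature OSN expresses a single OR gene abundantly, so OR mRNAs recovered with phosphorylated ribosomes name the types of OSN that were active. A level in a pS6-IP library depends on how many cells carry the mRNA, on how much each holds and on how much of it lies on phosphorylated ribosomes, and these cannot be told apart in bulk samples.

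The control libraries held 6401014, 7110582 and 8272613 counts for days 22, 21 and 18, and the libraries at 1% heptanal held 7167347, 5438466 and 9707543. Values below are CPM, the share of a library's counts on a gene at a fixed library size after TMM scaling, and are given in this order of days. Genes with at least 1 count numbered 16383, 17342 and 17576 in controls and 16194, 16603 and 17615 at 1% heptanal. ORs with a count numbered 296, 691 and 661 in controls and 273, 463 and 709 at 1% heptanal. Both day 22 libraries and the day 21 library at 1% heptanal therefore stood apart in the number of genes recovered. Leaving out the day 22 pair, or the day 21 mouse at 1% heptanal, again gave 0 calls in edgeR, with a lowest adjusted p of 0.617 and 0.368. Markers of the OE were abundant in all 6 libraries: Omp, the olfactory marker protein of mature OSNs, lay between 3298 and 6598 CPM.

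No gene passed the test at 1% heptanal in the fit used here. This differs from the authors, who also used edgeR, without naming the test, and reported significant enrichment of some OR mRNAs at this concentration. In edgeR's quasi-likelihood fit with the pair as a block, 0 of 14930 genes were higher and 0 were lower at an adjusted p below 0.05. Before adjustment, p was below 0.05 for 197 genes on the higher side (1.32%) and 290 on the lower side (1.94%). The lowest adjusted p was 0.314, for Olfr1359, and that of every other gene was at least 0.9997. In a fit of the 6 mice alone, with the block, 0 genes were called and the lowest adjusted p was 0.404. On the same counts and with the same block, edgeR's likelihood ratio test called 3 genes higher and 11 lower, and DESeq2 called 2 higher (Olfr1359 and Olfr524) and 1 lower (Olfr601). Directions within pairs are therefore given below as descriptions, and none of the genes named was shown to differ between the groups by this test. In all 3 pairs, 1711 genes (11.5%) were higher at 1% heptanal and 1749 (11.7%) were lower, and 13 genes (0.0871%) were at least 2-fold higher and 26 (0.174%) at least 2-fold lower. The groups did not overlap, so that every mouse at 1% heptanal lay above or below every control, for 341 genes on the higher side (2.28%) and 245 on the lower side (1.64%).

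Across genes, the 3 pairs had little in common. The log2 differences between the mouse at 1% heptanal and its control correlated across the 14930 genes at r = 0.05 between days 22 and 21, -0.07 between days 22 and 18 and -0.06 between days 21 and 18. Among the 10172 genes with a mean of at least 10 CPM these values were 0.13, -0.16 and -0.07. Genes are not independent replicates, and the pairs share no library. The spread of the differences was widest in the day 21 pair, with an SD of 0.91 log2 units, against 0.82 on day 22 and 0.60 on day 18.

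Immediate early genes, whose transcription marks recent neuronal activity, were first considered. Of 29 listed genes 27 were tested, of which 3 (11.1%) were higher in all 3 pairs and 4 (14.8%) lower, close to the shares over all genes. Their median log2 fold change was -0.03, against -0.01 over all genes tested. Fosb, which encodes a subunit of the AP-1 transcription factor, was the 1 member with an unadjusted p below 0.05. It had 3.87, 2.40 and 1.77 CPM in controls and 6.49, 6.60 and 8.86 CPM at 1% heptanal. Every mouse at 1% heptanal thus lay above every control. The log2 fold change was 1.51 ± 0.32 (SE), a 2.84-fold higher level (edgeR adjusted p = 0.9997). The mice at 100% heptanal, compared with the same controls, had 88.9, 95.6 and 67.1 CPM (log2 fold change 4.98, adjusted p = 0.00136).

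The other immediate early genes that passed the test at 100% heptanal (Fos, Egr1, Nr4a1 and Btg2) had log2 fold changes between -0.37 and 0.06 at 1%. Fos, the AP-1 partner most often used as an activity marker, had 51.3, 28.3 and 64.5 CPM in controls and 50.1, 31.4 and 27.0 CPM at 1% heptanal. It was near its control on days 22 and 21 and under it on day 18, with a log2 fold change of -0.37 ± 0.25 (SE). Egr1, a zinc finger transcription factor, had 31.4, 25.4 and 71.3 CPM in controls and 36.9, 38.2 and 47.7 CPM at 1% heptanal, higher in 2 pairs and lower in the third. Their log2 fold changes at 100% heptanal were 2.72 and 2.98 (adjusted p = 0.0068 and 0.00136). Nr4a1, an orphan nuclear receptor, had 77.1, 67.1 and 109 CPM in controls and 83.5, 66.0 and 98.9 CPM at 1% heptanal, against 273, 457 and 403 CPM at 100%. Btg2, an antiproliferative early response gene, followed the same order, with log2 fold changes of -0.06 at 1% and 1.76 at 100% heptanal (adjusted p = 0.9997 and 0.00695).

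Fosl1 and Jund, AP-1 subunits as well, were the other members higher in all 3 pairs, by log2 fold changes of 0.44 ± 0.62 and 0.26 ± 0.16 (SE). Arc, a synaptic plasticity gene, was lower in all 3 pairs, with 7.12, 4.51 and 4.42 CPM in controls and 1.47, 3.47 and 3.35 CPM at 1% heptanal, as were Gadd45b, Ier2 and Ier3, whose log2 fold changes lay between -0.42 and -0.25. Npas4, an activity-dependent transcription factor, was at the limit of detection. It was at 0, 0.564 and 0 CPM in controls and at 2.36, 2.78 and 0 CPM at 1% heptanal, with fitted log2 fold changes of 3.10 ± 1.59 (SE) at 1% and 3.79 at 100% heptanal (edgeR adjusted p = 0.9997 and 0.461). The summed level of the list was 0.936, 1.04 and 0.854 times that of the control in the 3 pairs.

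**Figure D1:**
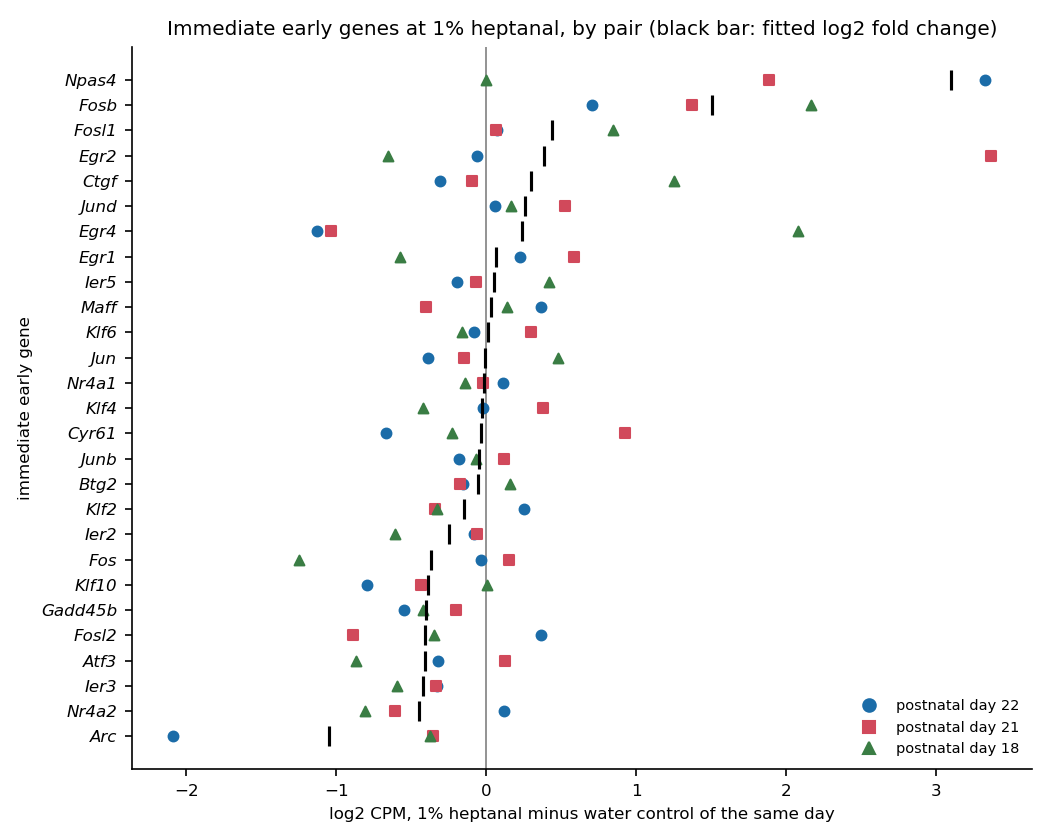
Difference in log2 CPM between the mouse at 1% heptanal and the control of the same day (x axis) for the 27 immediate early genes tested (y axis, in order of the fitted log2 fold change, black bar), with 1 symbol per pair. The 3 points of Fosb all lie above 0, at 0.71, 1.37 and 2.17, while those of Fos and Egr1 lie on both sides of 0.

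Promoters of Fosb and Fos are shown because these related genes differed in their values at 1% heptanal. The RefSeq windows (GRCm38.p6, 250 bases before to 50 after the start of the gene) are chr7:19309996-19310295 on the minus strand for Fosb and chr12:85473640-85473939 on the plus strand for Fos. Both were matched by symbol, and both are printed 5′ to 3′. Capitals mark TGACG, the core of the cyclic AMP response element, searched on both strands and found in 20.8% of 32851 promoter windows of this length.
Fosb: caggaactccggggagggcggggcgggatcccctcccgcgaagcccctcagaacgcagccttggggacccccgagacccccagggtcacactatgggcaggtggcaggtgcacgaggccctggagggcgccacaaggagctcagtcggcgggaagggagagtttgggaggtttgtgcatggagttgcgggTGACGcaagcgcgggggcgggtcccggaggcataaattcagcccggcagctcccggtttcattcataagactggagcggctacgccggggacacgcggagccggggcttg
Fos: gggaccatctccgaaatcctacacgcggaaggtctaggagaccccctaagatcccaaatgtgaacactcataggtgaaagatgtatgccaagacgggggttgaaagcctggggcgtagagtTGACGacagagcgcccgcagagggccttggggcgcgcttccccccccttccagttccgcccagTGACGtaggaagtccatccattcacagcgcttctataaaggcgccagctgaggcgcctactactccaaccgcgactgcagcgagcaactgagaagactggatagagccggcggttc
Fosb held 1 match and Fos held 2, and a match is a description of the letters only.

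Genes tied to OSN activity over a longer time were considered next. Of 8 genes tested, 1 (12.5%) was higher in all 3 pairs and 0 were lower, against 11.5% and 11.7% of all genes. That gene was Kirrel2, an adhesion molecule of OSN axons, with 157, 156 and 117 CPM in controls and 192, 166 and 136 CPM at 1% heptanal (log2 fold change 0.20 ± 0.12, SE). Pcdh10, a protocadherin, was higher in 2 pairs and lower in the third, with a log2 fold change of 0.37 ± 0.18 (SE). At 100% heptanal these genes had log2 fold changes of 1.17 and 2.67 (adjusted p = 0.00775 and 0.00136). S100a5, a calcium-binding protein of active OSNs, had 9.76, 99.9 and 51.4 CPM in controls and 11.9, 18.8 and 99.3 CPM at 1% heptanal, so that the pairs disagreed in direction.

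**Figure D2:**
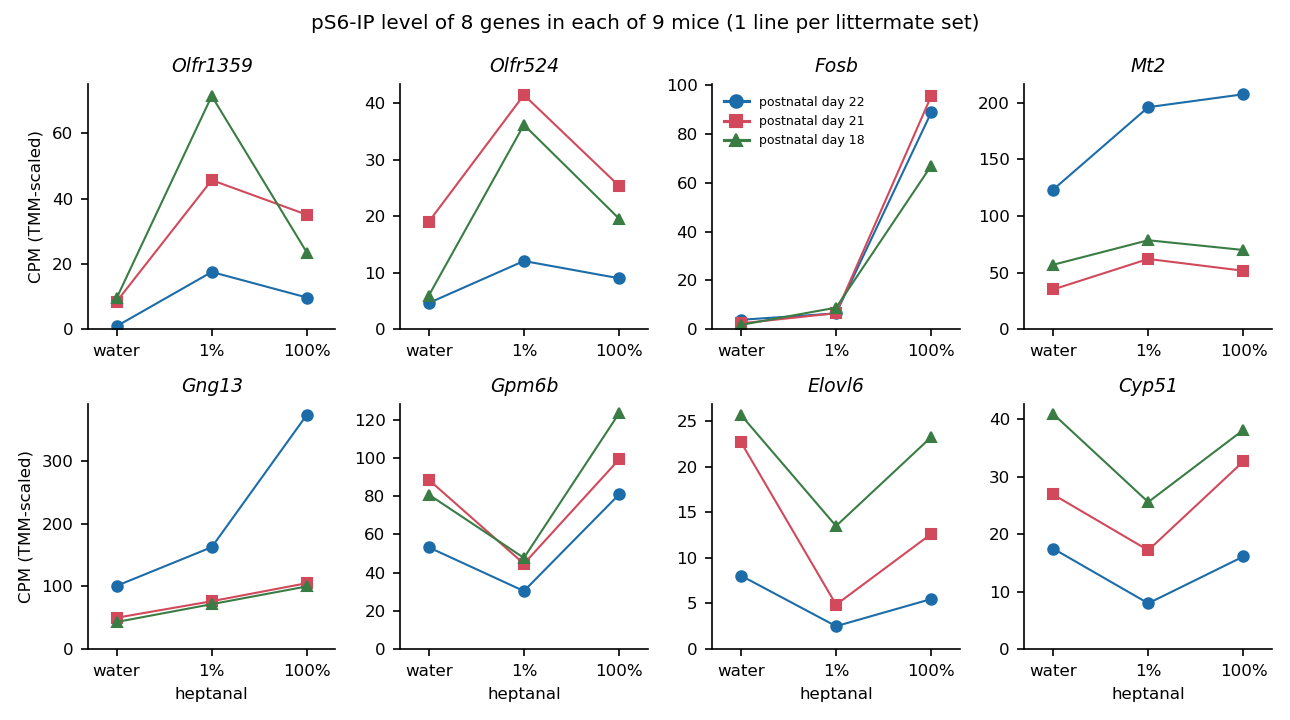
Level of 8 genes in CPM (y axis, from 0) in the mice given water, 1% or 100% heptanal (x axis), with 1 point per mouse and 1 line per postnatal day. The genes were picked among those that moved the same way in all 3 pairs, so in each panel all 3 lines run the same way from water to 1% heptanal. Fosb reaches 67.1 to 95.6 CPM only at 100%.

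The ORs as a group did not move in 1 direction. They took 0.200%, 0.549% and 0.324% of all counts in controls and 0.143%, 0.429% and 0.543% at 1% heptanal. The share was thus lower in the day 22 and 21 pairs (0.714 and 0.782 times the control) and higher in the day 18 pair (1.68 times), with a geometric mean ratio of 0.978. It was 0.747 without the day 18 pair and 1.14 without the day 22 pair. The median log2 difference of the 448 ORs was 0, -0.79 and 0.58 in the 3 pairs. Of the 448 ORs, 300 were lower in the day 21 pair and 300 were higher in the day 18 pair. In the day 22 pair 164 were at 0 counts in both mice.

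**Figure D3:**
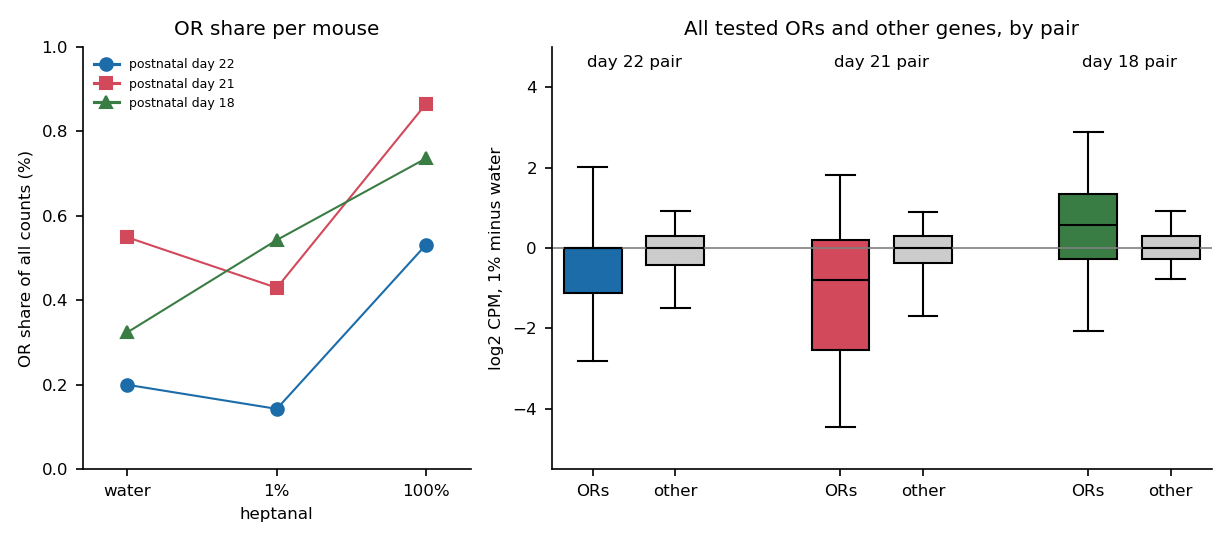
Left, the share of all counts on ORs in percent (y axis) in each mouse by exposure (x axis), with 1 line per postnatal day. Right, the log2 difference in CPM between 1% heptanal and water for the 448 ORs tested (coloured) and the 14482 other genes (grey) in each pair; boxes show median and quartiles, whiskers the 5th to 95th percentile, and the OR medians are 0, -0.79 and 0.58.

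In all 3 pairs, 24 of the 448 ORs (5.36%) were higher and 39 (8.71%) were lower at 1% heptanal, both under the shares over all genes. ORs at 0 in both mice of a pair could not count in either direction. Fitted log2 fold changes of the tested receptors had a median of -0.19. They were also recovered at low levels, with a median of 2.97 CPM over the 6 mice, against 23.8 CPM for the other genes tested.

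Olfr1359 had the lowest p of all genes. The gene lies on chromosome 13 of mm10 from 21698111 to 21706833 and is annotated as protein-coding. It had 0.929, 8.46 and 9.48 CPM in controls (6, 60 and 75 counts) and 17.5, 45.7 and 71.4 CPM at 1% heptanal (119, 263 and 726 counts). Every mouse at 1% heptanal lay above every control. The log2 fold change was 2.98 ± 0.36 (SE), 7.87-fold (edgeR adjusted p = 0.314). At 100% heptanal, against the same controls, the levels were 9.72, 35.1 and 23.5 CPM (log2 fold change 2.04, adjusted p = 0.0697). Reads that mapped to several places made up 37.0% of its counts, so part of the level depends on how the authors assigned them. In uniquely mapped counts the log2 fold change was 2.91 (edgeR adjusted p = 0.998). The call for Olfr1359 depended on the method, with an adjusted p of 1.29e-10 in DESeq2 and 1 in edgeR without the pair as a block, while its log2 fold change stayed between 2.68 and 3.29.

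The other ORs tested near Olfr1359 on chromosome 13 did not share its difference of at least 2-fold in every pair. Their fitted log2 fold changes were 1.33 ± 0.77 (SE) for Olfr1364, 1.33 ± 1.05 for Olfr11 and 0.89 ± 0.50 for Olfr1361. They were 0.38 ± 0.42 for Olfr1362 and -1.55 ± 0.81 for Olfr1535, against a median of -0.19 over all ORs tested (edgeR adjusted p = 0.9997 for each). Olfr11 was the other OR there that was higher in all 3 pairs, with 0, 5.21 and 4.55 CPM in controls and 2.95, 5.39 and 5.31 CPM at 1% heptanal, values that lay close together on days 21 and 18. Olfr1364 had 5.11, 49.0 and 20.1 CPM in controls and 3.24, 146 and 61.7 CPM at 1% heptanal, higher in 2 pairs. Olfr1362, Olfr1361 and Olfr1535 also differed in direction between pairs or, for Olfr1535, were at 0 in a pair.

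Olfr524, on chromosome 7 from 140198499 to 140205964, had the next lowest p among the ORs that were higher. It had 4.65, 19.0 and 5.94 CPM in controls and 12.1, 41.5 and 36.2 CPM at 1% heptanal. The groups overlapped, since the day 21 control exceeded the day 22 mouse at 1% heptanal, but the difference within pairs was at least 2-fold. Its log2 fold change was 1.67 ± 0.32 (SE; edgeR adjusted p = 0.9997), and the levels at 100% heptanal were 9.03, 25.4 and 19.6 CPM. Neither Olfr1359 nor Olfr524 had a higher fitted level at 100% than at 1% heptanal, a difference that was not tested here.

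Olfr287, Olfr53 and Olfr346 were ordered differently. Olfr287 (chromosome 15, 98206971 to 98221056) was recovered at 10.995, 18.0 and 11.2 CPM in controls and 18.7, 49.0 and 40.3 CPM at 1% heptanal, with no overlap between the groups. Its log2 fold change was 1.41 ± 0.33 (SE) at 1% and 2.33 at 100% heptanal (adjusted p = 0.9997 and 0.0325). Olfr53 (chromosome 7, 140646452 to 140653085) was recovered at 8.67, 8.46 and 4.17 CPM in controls and 17.5, 17.2 and 8.96 CPM at 1% heptanal. Every mouse at 1% heptanal again lay above every control, with a log2 fold change of 1.05 ± 0.26 (SE) at 1% and 2.26 at 100% heptanal (adjusted p = 0.9997 and 0.0129). Olfr346 was recovered at a lower level, 0.774, 1.55 and 1.77 CPM in controls and 2.36, 9.55 and 3.35 CPM at 1% heptanal. Multi-mapped reads made up 36.6% of the counts of Olfr287, 23.6% of those of Olfr53 and 9.71% of those of Olfr346.

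The ORs with the lowest p on the lower side were scarce at 1% heptanal. Olfr601 (chromosome 7, 103357094 to 103362655) was recovered at 6.50, 6.91 and 3.03 CPM in controls and 0, 0 and 0.295 CPM at 1% heptanal (edgeR log2 fold change -5.24 ± 0.94, SE, adjusted p = 0.9997). Its mice at 100% heptanal had 3.77, 14.9 and 7.29 CPM. Olfr378 had 0.310, 10.006 and 2.65 CPM in controls and 0 counts in all 3 mice at 1% heptanal, so that its mean level was at least 32.7-fold lower, against a floor of 3 counts over the group. The day 21 control held 71 of its control counts, and without that mouse the bound was 11.2-fold. Olfr97, Olfr463 and Olfr49 had control means of 2.70, 6.13 and 5.89 CPM and means of 0.0492, 1.45 and 0.492 CPM at 1% heptanal. In all 5 of these ORs, picked among those lower in all 3 pairs, every mouse at 1% heptanal lay under every control, as for 1.64% of all genes. Olfr97 had 1 count in each mouse of the day 22 pair, so that 0.155 CPM in the control and 0.147 CPM at 1% heptanal differed by library scaling only. At 1% heptanal, Olfr601 and Olfr49 were at 0 in the libraries of days 22 and 21. Those libraries held fewer ORs with a count than their controls (273 against 296 and 463 against 691). Their OR share was 0.714 and 0.782 times the control. On day 18, where 709 ORs had a count against 661 in the control, Olfr378 and Olfr97 were also at 0. Whether the low values reflect lower recovery of ORs in general was not tested.

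The most abundant ORs in the 6 libraries showed how far the pairs disagreed. Olfr536 had the highest mean level, 184 CPM, with 29.1, 296 and 169 CPM in controls and 5.90, 284 and 323 CPM at 1% heptanal. Olfr140 had 144, 231 and 140 CPM in controls and 52.9, 150 and 212 CPM at 1% heptanal, lower in 2 pairs and higher in the third. Of the 12 most abundant ORs, Olfr1349 was the one higher in all 3 pairs, with 22.8, 105 and 61.0 CPM in controls and 44.5, 140 and 122 CPM at 1% heptanal (log2 fold change 0.77 ± 0.25, SE, edgeR adjusted p = 0.9997). It was at 170, 282 and 243 CPM at 100% heptanal (adjusted p = 0.0199). Olfr482 was the one lower in all 3 pairs, by a log2 fold change of -0.20 ± 0.15 (SE).

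By chromosome, the ORs that moved the same way were spread over the clusters. Chromosome 7 held 116 of the ORs tested, of which 7 were higher and 9 lower in all 3 pairs, and chromosome 2 held 81, of which 4 were higher and 2 lower. Chromosome 11 had 3 higher and 9 lower of 53. Chromosome 13, with Olfr1359, had 2 higher and 0 lower of 10, and a median log2 fold change of 0.55. Of the trace amine receptors, the other family of OSN receptors that use the same G protein, 2 were tested. Taar7e was higher in all 3 pairs, with 0.310, 1.13 and 0.506 CPM in controls and 2.51, 1.91 and 2.76 CPM at 1% heptanal.

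Among the genes that are not ORs, the metallothioneins, small metal-binding proteins, shared a direction. All 3 that were tested were higher in all 3 pairs, against 11.5% of all genes, in a list drawn up after the values had been seen. Mt2 had 123, 35.1 and 56.9 CPM in controls and 196, 62.0 and 78.5 CPM at 1% heptanal, a log2 fold change of 0.65 ± 0.15 (SE; edgeR adjusted p = 0.9997). Mt1 had 400, 119 and 201 CPM in controls and 561, 189 and 231 CPM at 1% heptanal, a log2 fold change of 0.45 ± 0.15 (SE). The groups overlapped for both genes, since the day 22 control lay above the mice at 1% heptanal of days 21 and 18. Mt3, the form known from brain, had 18.9, 11.3 and 12.8 CPM in controls and 24.9, 15.1 and 15.4 CPM at 1% heptanal.

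The promoters of Mt2 and Mt1 are shown because these neighbouring genes shared a direction. They are chr8:94172368-94172667 for Mt2 and chr8:94178839-94179138 for Mt1, both on the plus strand of GRCm38.p6 in RefSeq. Capitals mark TGCACNC or TGCGCNC, the core of the metal response element bound by the factor MTF1, on both strands and without overlap between matches. These letters occur in 25.7% of all promoter windows.
Mt2: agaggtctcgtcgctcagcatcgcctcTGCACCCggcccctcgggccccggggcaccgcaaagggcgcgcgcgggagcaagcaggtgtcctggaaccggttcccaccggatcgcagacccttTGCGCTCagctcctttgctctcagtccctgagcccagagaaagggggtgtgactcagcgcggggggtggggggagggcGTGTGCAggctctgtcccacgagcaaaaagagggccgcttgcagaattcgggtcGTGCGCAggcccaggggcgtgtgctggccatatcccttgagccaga
Mt1: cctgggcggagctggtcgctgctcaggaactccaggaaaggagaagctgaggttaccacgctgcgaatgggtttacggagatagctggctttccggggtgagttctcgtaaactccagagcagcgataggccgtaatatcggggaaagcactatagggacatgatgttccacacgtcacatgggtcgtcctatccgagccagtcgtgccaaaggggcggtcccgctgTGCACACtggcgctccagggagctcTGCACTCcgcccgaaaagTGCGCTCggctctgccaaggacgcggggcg
Mt2 held 4 matches and Mt1 held 3.

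Of the remaining genes with the lowest p on the higher side, Gng13 encodes a G protein gamma subunit of OSNs and had 101, 50.03 and 43.2 CPM in controls and 163, 76.4 and 71.7 CPM at 1% heptanal. The difference was of like size in the 3 pairs (0.69, 0.61 and 0.73 log2 units), and the fitted log2 fold change was 0.68 ± 0.18 (SE; edgeR adjusted p = 0.9997) at 1% and 1.41 (adjusted p = 0.023) at 100% heptanal. Gldc, the glycine decarboxylase, had 27.7, 46.2 and 24.4 CPM in controls and 43.6, 73.7 and 40.1 CPM at 1% heptanal, with log2 fold changes of 0.68 ± 0.17 (SE) at 1% and 1.16 (adjusted p = 0.0395) at 100%. Nrn1l, a relative of neuritin, had log2 fold changes of 0.56 ± 0.15 (SE) at 1% and 1.56 (adjusted p = 0.00695) at 100% heptanal. Its mean log2 difference over the pairs at 1% was 0.37 once each pair was centred by transcript length. Both were higher within each pair, though the groups overlapped. Atat1, which acetylates alpha-tubulin, had 15.5, 23.4 and 18.2 CPM in controls and 27.4, 35.3 and 28.5 CPM at 1% heptanal, without overlap. Arxes2 went from 23.5 ± 1.40 to 36.1 ± 1.67 CPM and Tarbp2, a partner of Dicer, from 45.6 ± 0.94 to 66.5 ± 7.19 CPM (SD, n = 3 each), but 40.0% and 93.8% of their counts were multi-mapped reads.

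On the lower side, Gpm6b, a membrane glycoprotein of neurons and glia, had the lowest p. It had 53.3, 88.6 and 80.9 CPM in controls and 30.4, 44.6 and 47.7 CPM at 1% heptanal, so that every mouse at 1% heptanal lay under every control. The log2 fold change was -0.86 ± 0.15 (SE; edgeR adjusted p = 0.9997), 1.81-fold lower. The levels at 100% heptanal were 80.9, 99.3 and 123 CPM. Tshz3, a zinc finger transcription factor, had 22.1, 20.6 and 17.2 CPM in controls and 6.64, 12.7 and 7.97 CPM at 1% heptanal, again without overlap (log2 fold change -1.18 ± 0.27, SE). Atl2, an atlastin of the endoplasmic reticulum, had 28.6, 36.6 and 39.2 CPM in controls and 12.7, 23.3 and 27.9 CPM at 1% heptanal. Magt1, a subunit of the oligosaccharyltransferase, and Isoc1 had log2 fold changes of -0.67 ± 0.17 and -0.64 ± 0.16 (SE), with overlap between the groups.

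Elovl6 and Cyp51, enzymes of fatty acid elongation and of sterol synthesis, were both among the 12 genes with the lowest p on the lower side. Elovl6 had 8.05, 22.7 and 25.7 CPM in controls and 2.51, 4.86 and 13.5 CPM at 1% heptanal (log2 fold change -1.58 ± 0.30, SE), with 25.9% multi-mapped reads. Cyp51, the lanosterol demethylase, had 17.5, 26.9 and 40.9 CPM in controls and 7.96, 17.2 and 25.6 CPM at 1% heptanal (log2 fold change -0.81 ± 0.20, SE). In a list of 27 sterol and fatty acid synthesis genes, drawn up after these values were seen, 7 (25.9%) were lower and 1 (3.7%) was higher in all 3 pairs, against 11.7% and 11.5% of all genes. The median log2 fold change of the list was -0.15. Sqle, Fdft1 and Hmgcs1, enzymes of sterol synthesis, differed in direction between pairs.

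The remaining genes of this group need care. Csprs had 2.17, 11.98 and 17.3 CPM in controls and 0.147, 1.22 and 6.79 CPM at 1% heptanal, but all of its counts (100%) came from multi-mapped reads. Tug1, a long noncoding RNA annotated as antisense, had 0.774, 24.5 and 24.4 CPM in controls and 0.147, 2.43 and 9.15 CPM at 1% heptanal. Pcdhb11, a beta-protocadherin, had 3.87, 5.21 and 1.90 CPM in controls and 0, 0 and 0.295 CPM at 1% heptanal. Of the 12 beta-protocadherins tested, in a list drawn up afterwards, 3 (25%) were lower and 2 (16.7%) higher in all 3 pairs. The shares over all genes were 11.7% and 11.5%.

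The genes that differed at least 2-fold in every pair were mostly near the limit of detection. Of the 13 on the higher side, 4 were ORs (Olfr1359, Olfr524, Olfr1212 and Olfr221), and 8 had under 5 CPM in the higher group. Of the 26 on the lower side, 5 were ORs (Olfr601, Olfr378, Olfr463, Olfr49 and Olfr239), 18 had under 5 CPM in the higher group and 4 had no count in any mouse at 1% heptanal. These ORs made up 0.893% and 1.12% of the ORs tested. Kcne4, a potassium channel subunit, was among the non-OR genes on the higher side, with 1.55, 1.27 and 1.26 CPM in controls and 4.57, 7.12 and 3.35 CPM at 1% heptanal. On the lower side, Serpinb6b, a serine protease inhibitor, had 2.48, 17.2 and 12.1 CPM in controls and 0.295, 2.78 and 5.41 CPM at 1% heptanal, and Rspo3, a Wnt pathway ligand, had 5.11, 4.79 and 2.27 CPM in controls and 0, 0.695 and 0.590 CPM. These 3 were chosen after their values were seen.

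Below the filter on low counts, 13 genes had 0 counts in all mice of one group and at least 3 in each mouse of the other. The 5 named here, picked after their counts were seen, were Htr7, a serotonin receptor, with 8, 10 and 5 counts in controls; Irg1, an immune-response gene of macrophages, with 5, 17 and 5; H60c with 6, 8 and 4; Olfr1216 with 6, 6 and 15; and, in the other direction, Olfr722 with 4, 4 and 10 counts at 1% heptanal. Htr7, Irg1, H60c and Olfr1216 also had 0 counts in the 3 mice at 100% heptanal. At these counts no fold was given.

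The cell type composition of the libraries was described with 23 lists of marker genes. The summed level of a list was above the control in all 3 pairs for 3 lists and under it in all 3 for 2 lists. Of single genes, 11.5% were higher and 11.7% lower in all 3 pairs. The sums of the lists were not tested. Mature OSN markers were at 6638, 10260 and 4992 CPM in controls and 7818, 9881 and 7341 CPM at 1% heptanal, which was 1.18, 0.964 and 1.47 times the control, a geometric mean of 1.19. The list did not act as a unit. Omp was higher in all 3 pairs (log2 fold change 0.30 ± 0.15, SE), as was Gng13, but Cnga2, the cyclic nucleotide-gated channel subunit, had 121, 327 and 158 CPM in controls and 20.6, 335 and 237 CPM at 1% heptanal. Rtp1, an OR chaperone, was at 54.0 CPM in the day 22 control and 12.7 CPM in its pair. Taken relative to these markers, the OR share was 0.646, 0.765 and 1.04 times that of the control in the 3 pairs.

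Immature OSN markers were higher with less disagreement. Their sum was 746, 1089 and 970 CPM in controls and 790, 1327 and 1321 CPM at 1% heptanal, 1.06, 1.22 and 1.36 times the control. Of the 7 genes, 4 (57.1%) were higher in all 3 pairs and 0 were lower, against 11.5% and 11.7% of all genes. All 7 fitted log2 fold changes lay above 0, as did 48.1% of those of all genes tested. Stmn2, Crmp1 and Nhlh1 were lower in the day 22 pair, by log2 differences of -0.23, -0.16 and -0.73, and higher in the other pairs. Gap43, a growth cone protein of immature OSNs, had 205, 337 and 340 CPM in controls and 253, 515 and 452 CPM at 1% heptanal (log2 fold change 0.45 ± 0.16, SE, edgeR adjusted p = 0.9997). Gng8, the G protein gamma subunit of immature OSNs, was less abundant than Stmn2, Dpysl5 and Crmp1. It had 31.4, 25.2 and 22.6 CPM in controls and 42.2, 33.4 and 35.3 CPM at 1% heptanal, without overlap between the groups.

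The olfactory bulb list was the lowest. All 5 of its tested genes were lower in all 3 pairs, against 11.7% of all genes, and its sum was 40.3, 34.4 and 42.2 CPM in controls and 21.2, 22.2 and 30.5 CPM at 1% heptanal, with no overlap. The members were Gad1, the enzyme of GABA synthesis, Gfap, of astrocytes and ensheathing glia, Eomes, Mobp and Slc17a7. Gad1 had 12.7, 8.88 and 8.09 CPM in controls and 6.34, 3.30 and 6.40 CPM at 1% heptanal. Gfap had 10.4, 6.48 and 4.04 CPM in controls and 1.18, 3.30 and 1.67 CPM. The defining genes Slc32a1 and Tbx21 were at or near 0: Slc32a1 had 0 counts in all 6 mice and Tbx21 was below the filter. No member passed the test, with a lowest p of 0.0325 for Gfap.

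The supporting and stem cell lists lay on both sides of the control. Sustentacular cell markers summed to 1.08, 0.950 and 1.03 times the control and those of Bowman's glands to 1.05, 0.906 and 1.08 times. Markers of horizontal basal cells, the resting stem cells of the OE, were 0.597, 1.37 and 1.31 times the control, and those of fibroblasts 0.640, 0.950 and 1.37 times. Fibroblast markers stood at 9783 CPM in the day 22 control and 2390 CPM in the day 18 control, a difference between litters larger than that within any pair. Cycling cell markers were 0.890, 0.760 and 1.01 times the control.

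Secreted proteins of the nasal mucosa made up a large part of every library. Their sum was 67280, 53700 and 48230 CPM in controls, and 1.37, 0.808 and 0.662 times that at 1% heptanal. Markers of red blood cells were 1.15, 0.568 and 0.890 times the control. Bone and cartilage markers were 1.02, 1.31 and 1.36 times the control. Of the 8 genes tested, 5 had a fitted log2 fold change above 0, and the median was 0.10. In all 3 pairs 2 of them (25%) were higher, against 11.5% of all genes, and 0 were lower. Acp5, the acid phosphatase of osteoclasts, had 341, 346 and 293 CPM in controls and 542, 429 and 446 CPM at 1% heptanal (log2 fold change 0.54 ± 0.20, SE, edgeR adjusted p = 0.9997). Neutrophil and marrow markers, whose sum was mostly Ltf, were 1.15, 1.16 and 1.21 times the control, while the median log2 fold change of the 4 genes tested was -0.56. Ltf was the only 1 of the 4 with a fitted log2 fold change above 0. Camp, Elane, Retnlg and S100a8 were below the filter on low counts, so this ratio describes Ltf rather than the cell type. Motile ciliated cell markers were 0.994, 0.915 and 0.997 times the control, the other list that was lower in all 3 pairs.

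**Figure D4:**
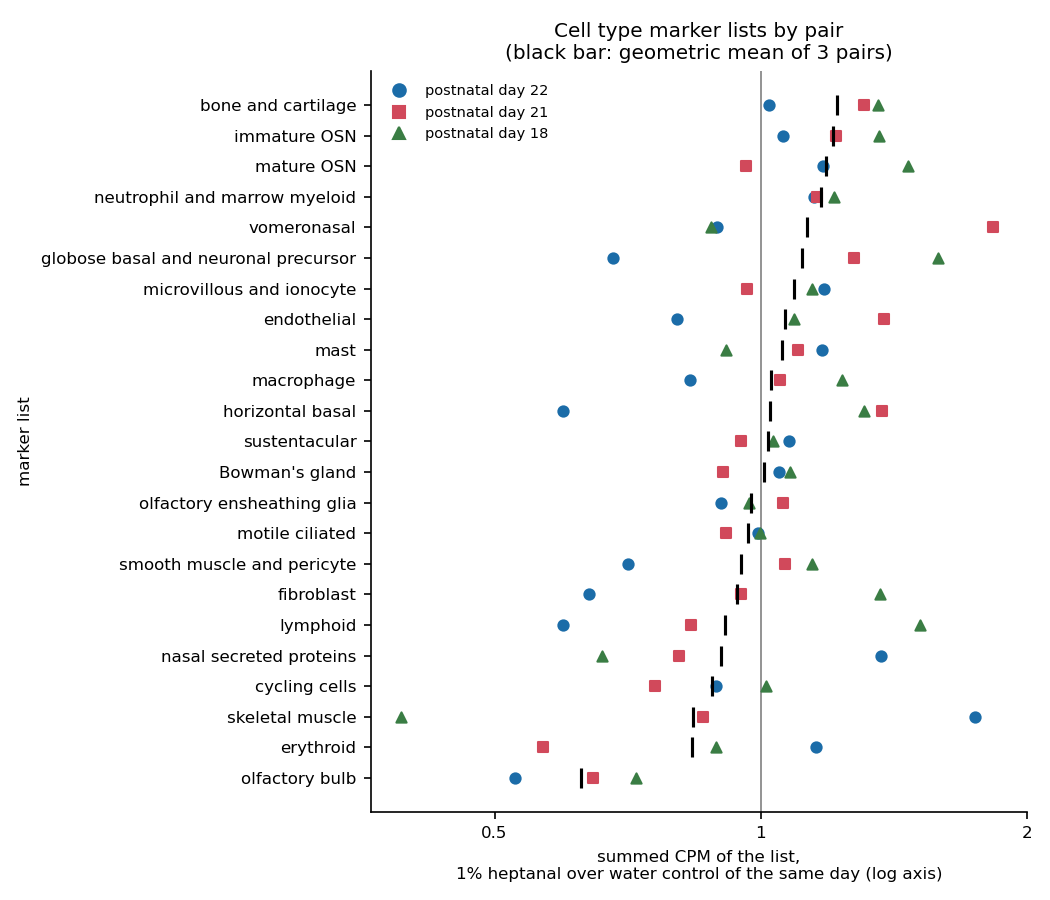
Summed CPM of each of 23 marker lists (y axis) at 1% heptanal over the control of the same day (x axis, log scale), with 1 symbol per pair and a black bar at the geometric mean. Bone and cartilage, immature OSN and neutrophil lists lie above 1 in all 3 pairs, and olfactory bulb and motile ciliated lists below it. The sum of the neutrophil list is mostly Ltf.

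Heptanal is an aldehyde, and genes that respond to reactive aldehydes or break them down were considered as lists, whose counts stand against 11.5% of all genes higher and 11.7% lower in all 3 pairs. Of 20 genes of aldehyde metabolism, 1 was higher and 1 lower in all 3 pairs, with a median log2 fold change of -0.07. Of 11 targets of NRF2, the transcription factor of the response to electrophiles, 3 (27.3%) were higher and 1 (9.09%) lower. The median log2 fold change of the NRF2 list was -0.03, and its sum was 1.059, 0.974 and 1.025 times the control. Gclm, of glutathione synthesis, was one of those that were higher, with 124, 84.3 and 77.9 CPM in controls and 168, 105 and 90.6 CPM at 1% heptanal. Of 11 heat shock genes 2 (18.2%) were higher and 4 (36.4%) lower, and of 14 genes of the unfolded protein response 1 was higher and 1 lower. Median log2 fold changes were -0.28 for the heat shock genes and -0.06 for those of the unfolded protein response. The unfolded protein response gene on the higher side was Ddit3, a stress-induced transcription factor, with 130, 93.4 and 75.5 CPM in controls and 137, 146 and 101 CPM at 1% heptanal. Of 9 MAPK feedback genes 1 was higher and 2 were lower.

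Transcript length separated the pairs. For genes whose longest annotated transcript was at most 1000 bases, the median log2 difference was 0.28 on day 22, 0.36 on day 21 and -0.06 on day 18. For genes over 6000 bases it was -0.24, -0.19 and 0.14. Shorter transcripts were thus higher at 1% heptanal in the day 22 and 21 pairs and not in the day 18 pair. Mt2, Nrn1l and Gng13, whose longest transcripts have 511, 617 and 719 bases, were higher in the day 18 pair as well. Each pair was also centred by transcript length, a step added after seeing the data. The mean log2 difference over the pairs was then 0.46 for Mt2, 0.37 for Nrn1l, 0.48 for Gng13 and 1.44 for Fosb. The fitted log2 fold changes, 0.65, 0.56, 0.68 and 1.51, are a different measure from a mean of pair differences. Fosb, of 3782 bases, lies in the class of 3000 to 4000 bases. The medians of that class were -0.04, -0.03 and -0.01, so centring raised the difference of Fosb in each pair. Subunits of the respiratory chain had fitted log2 fold changes above 0 for 63 of 72 genes, against 48.1% of all genes, and 11 (15.3%) were higher in all 3 pairs, against 11.5%, with 1.25, 1.16 and 0.904 times the control level in the 3 pairs, in a list drawn up afterwards. Cytosolic ribosomal proteins were 1.14, 1.13 and 0.730 times the control.

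**Figure D5:**
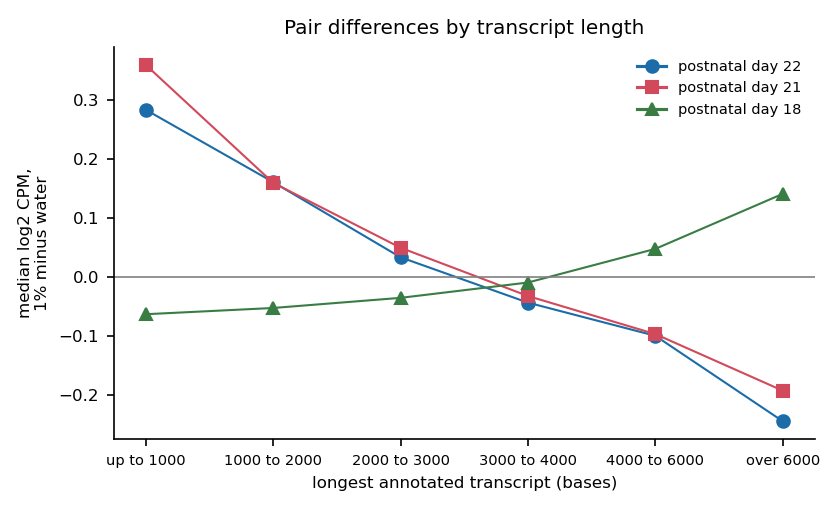
Median log2 difference in CPM between 1% heptanal and water (y axis) for genes in 6 classes of the longest annotated transcript (x axis, in bases), with 1 line per pair. The lines of days 22 and 21 go from 0.28 and 0.36 for the shortest class to -0.24 and -0.19 for the longest, and that of day 18 goes from -0.06 to 0.14.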

How the data were processed

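Libraries were made by the authors from pS6-IP mRNA by poly-T primed, PCR-amplified cDNA and sequenced as 50 base single reads without strand or molecular identifiers. Per the methods, reads were aligned with Bowtie to mm10 and counted with BEDTools, with extended OR gene models and a rescue step that shared multi-mapped reads among genes. The deposited tables have no header, and the column meanings were settled from their values: uniquely mapped counts in the second column and expected counts after rescue in the last. The expected counts deposited by the authors were rounded to whole numbers. The other 18 value columns of each table were not used. Because strand was not kept, overlapping and antisense genes cannot be told apart.

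Genes passed edgeR's filterByExpr (minimum count 10, total 15), were scaled by TMM and tested with edgeR 4.0.16 (R 4.3.3) glmQLFit and glmQLFTest over all 9 mice, with group and replicate block as terms and Benjamini-Hochberg adjustment over all genes tested. The block follows the littermate pairs of the methods. Same-day mice deviated together, with correlations of 0.73, 0.26 and 0.63 between control and 1% heptanal. Differences within pairs used log2 CPM with a prior count of 2. P-values rest on the spread between mice that was left after group and block, on 4 residual degrees of freedom. The scripts were tested on simulated data. Alternatives included DESeq2 1.42.0, other scalings and filters, uniquely mapped counts and leaving out mice. Named genes were the 12 with the lowest p in each direction among those moving the same way in all 3 pairs, 5 ORs per direction, immediate early genes, the most abundant members of each list and up to 5 genes below the filter. Some other genes, such as Gng8, were named outside these rules. Members and lists were chosen with earlier results of these data known. Figures were drawn with matplotlib 3.10.9.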

Additional observations from a re-analysis of the deposited data

How the results depend on the processing

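Without the replicate block, 0 genes were higher and 0 lower at an adjusted p below 0.05 in edgeR, as with it. With the block, the likelihood ratio test called 3 higher and 11 lower, and DESeq2 called 2 higher and 1 lower. Scaling by 5 mature OSN markers gave 1 higher and 2 lower, and left 801 genes higher and 1241 lower in all 3 pairs, against 1711 and 1749. With ORs adjusted separately 1 gene was higher, as was 1 without a filter on low counts. Genes at least 2-fold higher and lower in all 3 pairs numbered 31 and 58 without the filter and 4 and 8 with at least 5 CPM in 3 mice. Leaving out 1 pair at a time gave 3448 to 4078 genes higher in all remaining pairs and 3090 to 4177 lower, and 94 to 111 at least 2-fold higher and 104 to 339 at least 2-fold lower, since fewer pairs had to concur. The OR share ratio was 1.14, 1.09 and 0.747 without the day 22, 21 and 18 pair. Leaving out any single control or mouse at 1% heptanal called no gene. None of 579 alternative values changed direction for the 28 genes chosen by lowest p. These genes were picked among those that moved the same way in all 3 pairs, so a change of direction was unlikely from the outset. No alternatives were run for the other genes named. Depth limits the ORs and the genes under 5 CPM, where a few counts decide a fold.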
